A study of Homo sapiens with 18 samples.

Results

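The VP64 line and the neutral line were compared before induction, with vehicle alone, to find how alike the lines were and whether the genes that differed already resembled the effect seen once VP64 was induced. The comparison used 6 of the 18 RNA-seq libraries of the study, 3 biological replicates of each line. All libraries came from RWPE1, an established benign human prostate epithelial cell line, into which a construct named MACC had been introduced by lentivirus. The neutral construct (3X) joins a DNA-binding domain to the ERT2 domain and a 3X FLAG tag, and the VP64 construct carries the VP64 activation domain in addition. A PGK promoter drives each construct, both lines were kept in blasticidin, and the vehicle was ethanol for 48 hours. The libraries with tamoxifen, used below for comparison, received a dose that the labels give as 1.5 uM in the treatment field and 1.25 uM in the protocol. Members were the 5816 of 57773 rows of the deposited gene table that had at least 10 counts in at least 3 of the 18 libraries.

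Steroid hormone receptors bind palindromic DNA motifs near their target genes, FKBP5 among them, and regulate differentiation in prostate epithelium. ERT2 is a mutated hormone-binding domain of the estrogen receptor, which keeps a fused protein out of action until tamoxifen binds it. VP64 is a tandem repeat of a viral activation domain that recruits the transcription machinery, and genes bound by steroid receptors were therefore listed apart.

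Total counts lay between 720502 and 770000 in the 6 vehicle libraries. The neutral libraries had counts for 10817 to 11084 rows and the VP64 libraries for 11192 to 11449, ranges that did not overlap. Between 79.0% and 80.4% of the counts stood in rows that a gene on the opposite strand overlaps. The libraries were stranded and the strand setting of the quantification is not stated. Reads from a gene and from its opposite partner cannot be told apart here, and the opposite gene is named beside each row. Among mitochondrial protein genes, MT-ND6 had 9500 counts over the neutral libraries with vehicle and MT-CO1 had 63. Whether rows were counted on the reverse strand was not tested, so a row may not measure the gene it names. In bulk RNA, fewer cells of a kind and less RNA per cell cannot be told apart either. Positions below are on GRCh37.

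The construct-derived genes did not distinguish the lines by their labels. ESR1, the source of the hormone-binding domain, had 62, 65 and 43 counts in the neutral libraries and 28, 30 and 42 in the VP64 libraries, all below the neutral ones. Its log2 fold change, VP64 line over neutral line throughout, was -0.86 (95% interval -1.53 to -0.20), with an unadjusted p of 0.0114 and too few counts to keep an adjusted p. ZNF10, a source of KRAB domains, had 0 counts in all 6. No row of the table reads VP64 itself, so the label of the VP64 line rests on the labels alone.

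Both lines had counts in the rows of the keratins of basal prostate epithelium. KRT5 had 750.5, 759 and 948 normalized counts in the neutral libraries and 809.6, 841 and 934 in the VP64 libraries, with a log2 fold change of 0.07 (95% interval -0.15 to 0.30). KRT14 was at 0.10 (-0.16 to 0.36) and the luminal keratin KRT8, which shares exons with KRT18 on the other strand, at 0.00 (-0.16 to 0.17). TP63, the basal transcription factor, had 5, 10 and 4 counts in the neutral and 17, 16 and 17 in the VP64 libraries, a log2 fold change of 1.31 (95% interval 0.16 to 2.45) at an unadjusted p of 0.025 and with no adjusted p. The secretory markers KLK3, ACPP and FOLH1 had 0 counts in all 6 libraries, as had the leukocyte marker PTPRC, and of 15 stromal, endothelial, immune and neuroendocrine markers 3 had any count. The macrophage marker CD68, which other cells also express, had 47 counts over the neutral and 75 over the VP64 libraries, the fibroblast collagen COL1A1 had 9 and 9, and the neuroendocrine marker CHGA had 1 and 0.

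By correlation and root mean square difference, libraries of the VP64 line were about as far from neutral libraries as libraries of a line were from each other. Over all 5816 rows, Pearson correlations of log2(normalized count + 1) lay between 0.891 and 0.896 within the neutral line, between 0.897 and 0.8999 within the VP64 line and between 0.888 and 0.898 across the lines. Where rows averaged 50 or more normalized counts, the root mean square log2 difference was 0.450 to 0.474 within the neutral line, 0.407 to 0.437 within the VP64 line and 0.372 to 0.558 across lines. The closest pair of all was replicate 2 of either line (0.372), and the farthest was neutral replicate 1 with VP64 replicate 3 (0.558). These correlations are across genes, which share each library and its depth. Against counting noise, the chi-square statistic per degree of freedom was 3.20 to 3.55 within lines and 3.38 to 4.39 across them, so no library repeated another. Its mean was 3.23 within the neutral line, 3.33 within the VP64 line and 3.74 across lines, so by this measure pairs across lines were farther apart on average. The first principal component of the 500 most variable rows held 24.5% of the variance and set neutral replicate 1, at 30.8, apart from the other 5 libraries, which lay between -13.6 and 0.61 with both lines mixed.

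With an adjusted p under 0.05 in DESeq2, 47 rows differed between the lines, 7 higher and 40 lower in the VP64 line. They were 0.808% of the 5816 rows tested (0.12% higher and 0.688% lower) and 9.09% of the 517 rows abundant enough to keep an adjusted p. Their absolute log2 fold changes ran from 0.16 to 0.70 with a median of 0.39, and none reached 1. At an unadjusted p under 0.05 there were 413 rows, 7.1% of those tested, of which 182 were higher (3.13%) and 231 lower (3.97%). Adjusted over all 5816 rows, 8 rows passed (0.138%), all lower, and edgeR passed 4. With the replicate number as a block, 43 rows passed in the fit of 18 libraries and 22, all lower, in a fit of the 6 vehicle libraries. The first of these also spans the tamoxifen libraries, whose numbers were not taken to pair the lines. Only the fit of the 6 libraries is limited to the vehicle pairing. Of the 47 rows, 41 passed with the first block. The 6 that did not were RP11-78A19.3 (adjusted p 0.0502), MIR3615 (0.0627), RP11-326A19.5 (0.0708), AC015987.2 (0.0717), PIGF (0.0859) and ATP6V1C2 (0.0940). With the block in the 6 libraries 19 of the 47 passed, 24 did not and 4 had no adjusted p. The adjusted p-values of single rows below come from fits without a block. Of the rows described below, VIM-AS1, RP5-977B1.11, RP11-124N14.3, FAM211A, CMC1, PDE8B, HEATR1, HERC3, IAH1, RP11-442H21.2, WDR33, AC120194.1, AC015987.2, RP11-110I1.6, MSH6, RP11-78A19.3, ATP6V1C2 and PIGF passed with it, and the others, every higher row included, did not pass or had no adjusted p. Without a block, 7 of the 47 had no adjusted p in the 6 libraries. Without VP64 replicate 3 the count was 2, without neutral replicate 1 or neutral replicate 2 it was 16, and all 47 log2 fold changes kept their sign in each of these fits. Of the 40 lower rows, 29 had their lowest value in VP64 replicate 3.

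The precision of the table differed with abundance. The 95% interval of the log2 fold change lay wholly within a 2-fold difference in 1933 rows (33.2%). That share was 1.36% of the 3238 rows with a mean under 20 normalized counts, 45.6% of the 1127 rows from 20 to 50, 92.7% of the 935 rows from 50 to 200 and 98.4% of the 516 rows at 200 or more. For most abundant rows the lines were therefore bounded to less than a 2-fold difference, while for most rare rows a larger difference was not excluded. Rows with a mean under 202 over the 18 libraries kept no adjusted p under independent filtering, so none of them could be called. Of the 47 called rows, 43 stood in the most abundant class, in which the median row was at -0.07.

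**Figure D1:**
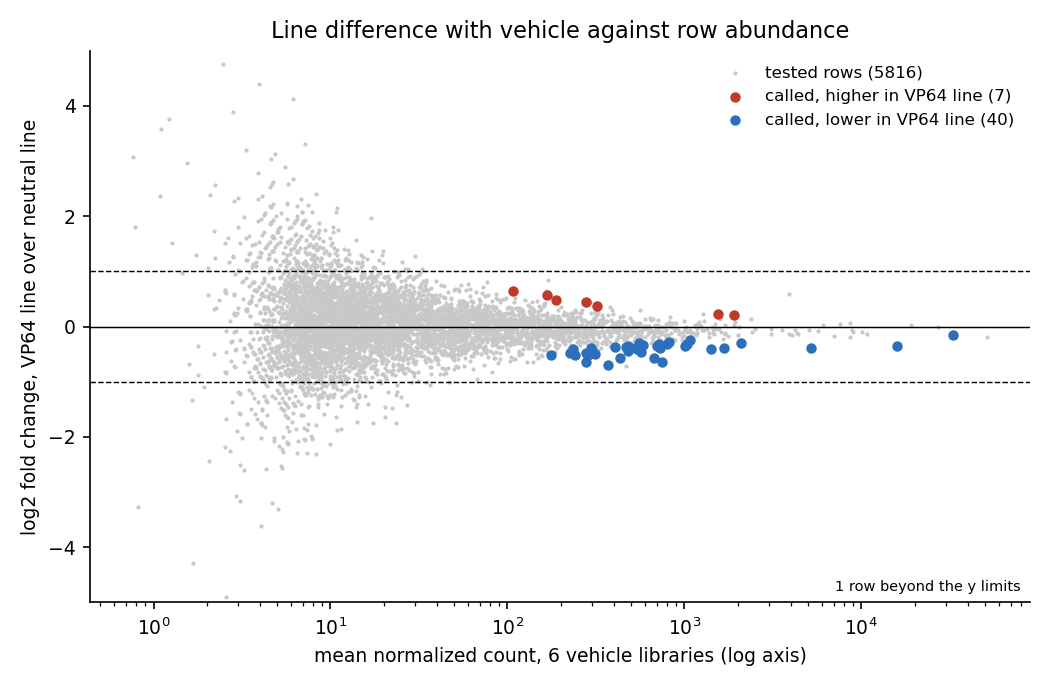
Each point is 1 of the 5816 rows, with its mean normalized count over the 6 vehicle libraries on a log axis and its log2 fold change (VP64 line over neutral line) on the vertical axis; dashed lines mark a 2-fold difference, and 1 row lies beyond the limits of the axis. The 7 higher and the 40 lower called rows all lie between the dashed lines and toward the abundant end.

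Scaling moved the split of the calls. Median-of-ratios factors left the 517 rows that kept an adjusted p at a median of -0.07, with 66.2% of them lower in the VP64 line, and all rows at 0.01. Scaling by total counts moved the median of all rows to 0.07 and gave 29 calls, 11 higher and 18 lower (37.9% higher, against 14.9%). Differences below are relative to the typical row.

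The best supported difference was at vimentin, the intermediate filament protein of mesenchymal and many cultured epithelial cells. The row VIM-AS1 (ENSG00000229124, chromosome 10, 17256238 to 17272017, minus strand), whose exons lie opposite VIM, had 6269, 5613 and 5753 normalized counts in the neutral libraries and 4591, 4484 and 4406 in the VP64 libraries. Every VP64 library lay below every neutral one, and the difference came to -0.39 in log2 (SE 0.05, DESeq2 adjusted p 3.64e-10). A neighbouring row opposite VIM, RP11-124N14.3, had 1210.5, 1099 and 1120.2 normalized counts in the neutral and 978, 856 and 934 in the VP64 libraries, again without overlap (-0.31, SE 0.08, adjusted p 0.00437, but 0.343 without VP64 replicate 3). The VIM row itself held a mean of 87.9 normalized counts and was at -0.19 (SE 0.20), with no adjusted p. VIM-AS1 was 1 of 2 rows that remained called whichever vehicle library was left out, with log2 fold changes between -0.42 and -0.34.

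The other was RP5-977B1.11 (ENSG00000259716), for which the annotation used here gave no position. It had 897, 922 and 913 normalized counts in the neutral libraries and 477, 664 and 602 in the VP64 libraries, again without overlap. Its log2 fold change was -0.65 (SE 0.11, adjusted p 1.68e-07) and ran from -0.75 to -0.53 with single libraries left out. Among the 3 rows of highest count, RP11-442H21.2 (ENSG00000269926, unmatched) had 35514, 33115 and 35091 normalized counts against 31015, 31121 and 30904, a difference of -0.16 (SE 0.04, adjusted p 0.0125), the smallest that was called. It did not pass without VP64 replicate 3 (adjusted p 0.416) or without neutral replicate 1 (0.0774). BEST1, a row opposite the ferritin heavy chain gene FTH1, was at -0.19 (SE 0.08, adjusted p 0.117) and the row RP5-940J5.9 opposite GAPDH, the glycolytic enzyme, at -0.02 (SE 0.06, adjusted p 0.921).

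The largest difference among the 40 lower rows was at RP11-78A19.3, opposite CHMP1B, a subunit of the ESCRT-III membrane-scission complex. It had 495, 473 and 400.0 normalized counts in the neutral and 327, 275 and 243 in the VP64 libraries, without overlap, at -0.70 (SE 0.23, adjusted p 0.0358). CMC1, a mitochondrial protein gene whose exons overlap AZI2, had 883, 798 and 723 against 605, 520.4 and 499, a difference of -0.56 (SE 0.13, adjusted p 0.00183) that edgeR also passed (0.0307). FAM211A, opposite its antisense FAM211A-AS1, had 18819.5, 17355 and 17699.5 against 14174, 14487 and 13619, at -0.35 (SE 0.07, adjusted p 0.000201; edgeR 0.000523). Both calls were lost without VP64 replicate 3 (0.343 for CMC1 and 0.124 for FAM211A) and with no other single library left out. The 4 rows edgeR passed were VIM-AS1, RP5-977B1.11, CMC1 and FAM211A.

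CTA-384D8.36, opposite SCO2, an assembly factor of cytochrome c oxidase, had 205, 214 and 202 normalized counts in the neutral and 120.5, 164 and 153 in the VP64 libraries (-0.51, SE 0.16, adjusted p 0.0273; abundant enough for an adjusted p through the KRAB tamoxifen mean of 412, and without one in the 6 libraries alone), while the SCO2 row itself was at 0.48 (SE 0.29) with no adjusted p. RP11-110I1.6, opposite HYOU1, a chaperone of the endoplasmic reticulum, had 844, 902 and 741 against 549, 772 and 582, which overlapped between the lines (-0.39, SE 0.11, adjusted p 0.0125), and the HYOU1 row was at 0.78 (SE 0.49) with no adjusted p. COX11, another assembly factor of that oxidase, opposite TOM1L1, was at -0.36. ATP6V1C2, opposite the disulfide isomerase gene PDIA6, was at -0.38, and P4HA2-AS1, opposite the collagen prolyl hydroxylase gene P4HA2, at -0.48. The SCO2 and HYOU1 rows had the other sign from the called rows opposite them. Neither kept an adjusted p, so no difference in direction is shown. The VIM and KRT7 rows had the same sign as the called rows opposite them. Reading a row as a measure of its partner was not tested.

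Of the other lower rows by size, AC120194.1 was at -0.64, PIGF (opposite RHOQ) at -0.58, ZNF263 (opposite TIGD7) at -0.51, CTD-2636A23.2 (opposite HMGCS1) at -0.51, PDE8B (opposite WDR41) at -0.50, RP11-180C16.1 (opposite MKLN1) at -0.47 and WDR33 (opposite SFT2D3) at -0.47. IAH1, opposite the shedding protease gene ADAM17, was at -0.45, FANCL (opposite VRK2) at -0.43, AC015987.2 at -0.41, RP11-326A19.5 (opposite ABHD2) at -0.41, HEATR1, a ribosome biogenesis factor opposite LGALS8, at -0.40, and the mismatch repair gene MSH6 (opposite FBXO11) at -0.39. Their adjusted p-values lay between 0.00437 (PDE8B, IAH1 and HEATR1) and 0.0487 (PIGF), and none of these stayed called without VP64 replicate 3, with adjusted p-values there from 0.343 to 0.815. HERC3, a ubiquitin ligase gene, was the 1 called row that was matched to the annotation and had no opposite-strand exon. It had 2321, 2286 and 2325 normalized counts in the neutral and 1931, 1881 and 1801 in the VP64 libraries, without overlap, at -0.30 (SE 0.08, adjusted p 0.00677, and 0.416 without VP64 replicate 3).

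The largest difference among the 7 higher rows was at AC019349.5. This row (ENSG00000229732, chromosome 17, 39657235 to 39658661, plus strand), opposite the squamous keratin gene KRT13, had 57.2, 114 and 78.8 normalized counts in the neutral and 126, 111 and 155 in the VP64 libraries. Its lines overlapped, and the log2 fold change was 0.64 (SE 0.18, adjusted p 0.0125). Rows kept an adjusted p from a mean of 202 over the 18 libraries, and this one, with 107 over the vehicle libraries, did so through the KRAB tamoxifen mean of 1183; it had none in the 6 libraries alone. RP11-6O2.4 (ENSG00000261054, chromosome 15, 99669037 to 99672011, minus strand), opposite SYNM, which encodes the filament protein synemin, had 125, 119 and 162 against 219.9, 182 and 203. Its lines did not overlap, at 0.58 (SE 0.17, adjusted p 0.0159). It averaged 168 over the vehicle libraries and kept an adjusted p only with the libraries of other groups, among them VP64 with tamoxifen at 413, and it too had none in the 6 libraries alone. RP3-416H24.1, opposite the simple-epithelial keratin gene KRT7, had 1773, 1779 and 1744 against 1932, 2134 and 2085 (0.22, SE 0.07, adjusted p 0.0273), and the KRT7 row itself was at 0.31 (SE 0.20) with no adjusted p.

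Of the other higher rows, LRRC24 (opposite LRRC14) was at 0.44 and MIR3615, opposite the membrane scaffold gene SLC9A3R1, at 0.37. None of the 7 passed with edgeR (adjusted p 0.180 to 0.380) or without VP64 replicate 3 (0.447 to 0.741).

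**Figure D2:**
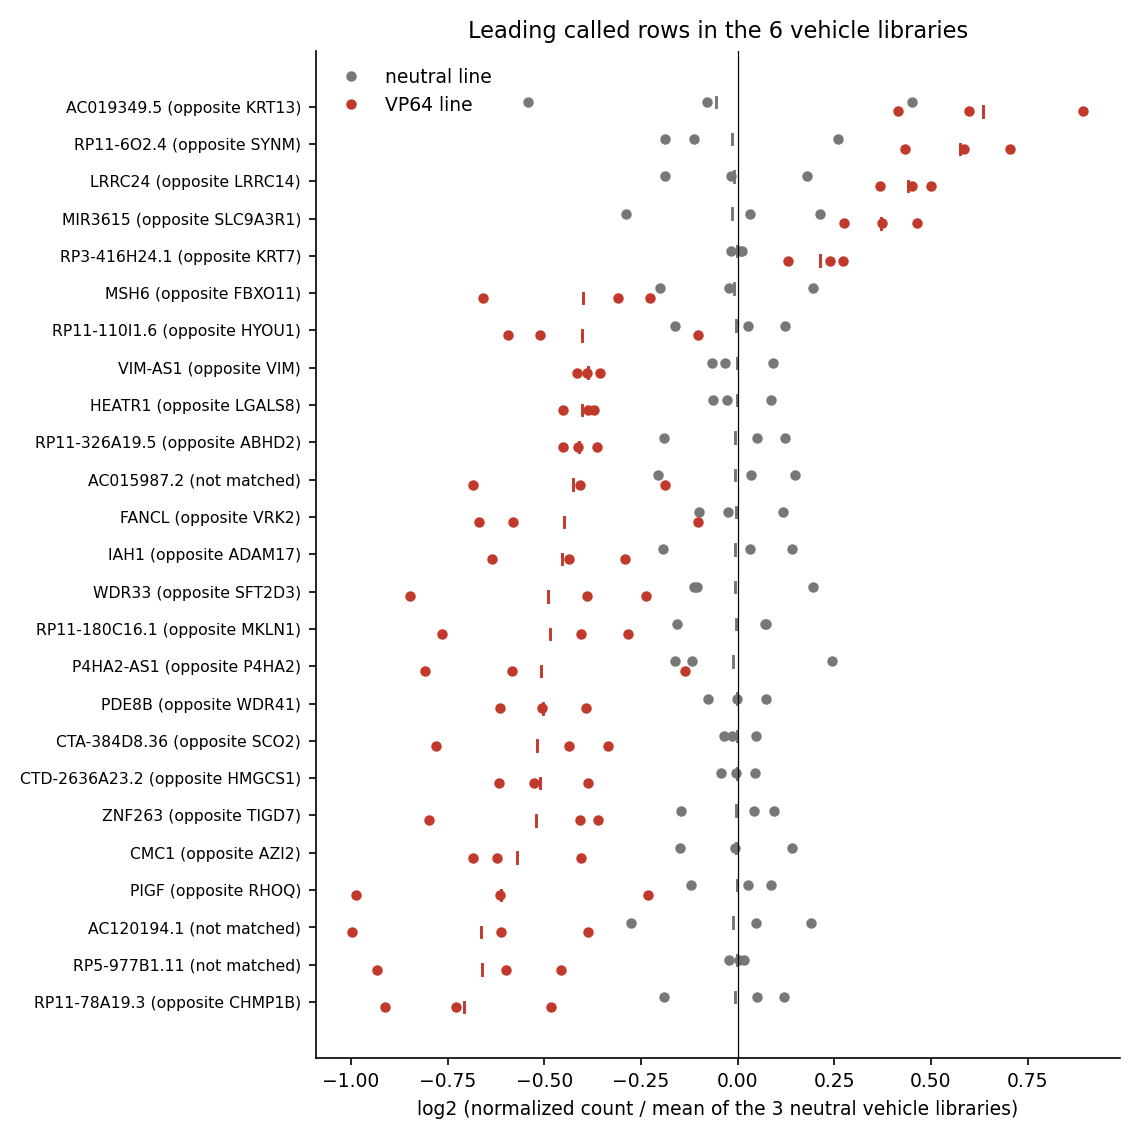
The 25 leading called rows named here are shown in the 6 vehicle libraries as log2 of the normalized count over the mean of the 3 neutral libraries; points are libraries, ticks are line means, and the opposite-strand gene follows each row name. VP64 values lie wholly to the right of neutral values in the higher rows shown, all but AC019349.5, and to the left in most lower rows, VIM-AS1 and HEATR1 among them.

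Libraries of the lines did not overlap in 42 of the 47 called rows, against 13.1% of all rows tested and 26.7% of those that kept an adjusted p. Most called rows share the property that a gene lies opposite them: 41 had such an overlap, 5 were not matched to the annotation and 1 had none. That is near the background, since 94.2% of the matched rows that kept an adjusted p have an overlap. When only the matched rows without one were kept, DESeq2 called 0 rows. There were 96 at an unadjusted p under 0.05, beside 413 of all 5816 rows. The rows kept here are those outside the 67.9% of the 5635 matched rows that have an overlap.

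No list of genes showed a called member in its own row. Of the 18 basal genes 16 were tested, 11 higher and 5 lower with a median of 0.09, and of the 17 luminal genes 5 were tested, with a median of 0.22, beside 0.01 over all rows. Cell-cycle genes had medians of 0.11 (G2/M, 8 tested) and 0.38 (S phase, 8 tested), and MKI67, the proliferation antigen, was at 0.14 (95% interval -0.58 to 0.86). The 77 tested ribosomal protein genes had 38 higher and 39 lower members with a median of -0.003. Of these, 62 were bounded within a 2-fold difference, beside 1933 of all 5816 rows. Interferon and antigen presentation genes (15 tested) were at -0.05, amino acid and ER stress genes (9 tested) at 0.13, squamous genes (7 tested) at -0.03, growth factor early response genes (8 tested) at 0.06, p53 targets (4 tested) at 0.02 and nucleolar and MYC-linked genes (12 tested) at -0.10. MYC itself was at -0.18 (95% interval -1.34 to 0.98), a direction that turned without neutral replicate 3. Of cholesterol synthesis genes 8 of 11 tested were lower, with a median of -0.15. Of the 7 rows opposite this list 1 was called, that at HMGCS1, as was 1 of the 3 rows opposite the squamous list, that at KRT13. Called rows were 0.808% of all rows and 9.09% of the 517 that kept an adjusted p. Neither row had an adjusted p in the 6 libraries alone, so nothing is read from these counts.

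Genes of the mitochondrial genome were higher in direction but not called. All 13 of its protein genes had higher means in the VP64 line with vehicle, with a median of 0.46, and none kept an adjusted p under 0.05 (3 at an unadjusted p under 0.05: MT-ND2, MT-CO1 and MT-CYB). MT-ND6, the row of highest count among them, had 2584, 4489.7 and 2289 normalized counts in the neutral and 3630.2, 4278 and 6148 in the VP64 libraries, which overlapped. Row counts may not rank the transcripts of these genes, since the strand of counting was not tested. The share of counts in mitochondrial rows was 0.421% to 0.838% in the neutral and 0.674% to 1.16% in the VP64 libraries. With tamoxifen the same 13 genes had a median line difference of -0.16. Mitochondrial genes share 1 genome and its transcripts and are not independent, and the part of RNA quality was not tested.

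Whether the line difference persisted was asked in the libraries with tamoxifen, which share no library with the vehicle comparison but share the lines and the fit. There 180 rows differed, 3.09% of those tested, with 74 higher (1.27%) and 106 lower (1.82%). Of the 47 rows that differed with vehicle, 40 kept their direction with tamoxifen and 21 were called there, all 21 in the same direction. Those 21 were 44.7% of the rows called with vehicle and 11.7% of the rows called with tamoxifen. Among the 517 abundant rows, 105 (20.3%) were called with tamoxifen. As background, 66.2% of the 517 abundant rows had the same sign in both comparisons. Pearson r between the 2 sets of line differences was 0.07 over all rows, 0.27 over the 1462 rows with a mean of at least 50 and 0.46 over the 517, and rows are not independent.

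Persistence differed from row to row. PDE8B (-0.50 with vehicle and -0.66 with tamoxifen, adjusted p 1.66e-05), IAH1 (-0.45 and -0.53, adjusted p 0.000181), HEATR1 (-0.40 and -0.37, adjusted p 0.00413), HERC3 (-0.30 and -0.38, adjusted p 9.50e-05) and VIM-AS1 (-0.39 and -0.18, adjusted p 0.0124) were lower in both. UTS2, opposite the clock gene PER3, was at -0.38 with vehicle and -0.86 with tamoxifen (adjusted p 1.10e-10). RP5-977B1.11 was at -0.65 with vehicle and -0.08 with tamoxifen, ZNF263 at -0.51 and 0.01, and RP3-416H24.1 at 0.22 and -0.06. Of the 47 rows, 6 had a line difference that itself changed with tamoxifen (interaction term, adjusted p under 0.05; 0.619% of all rows). The 47 were chosen on the vehicle difference that this term subtracts, so nothing is read from that count.

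**Figure D3:**
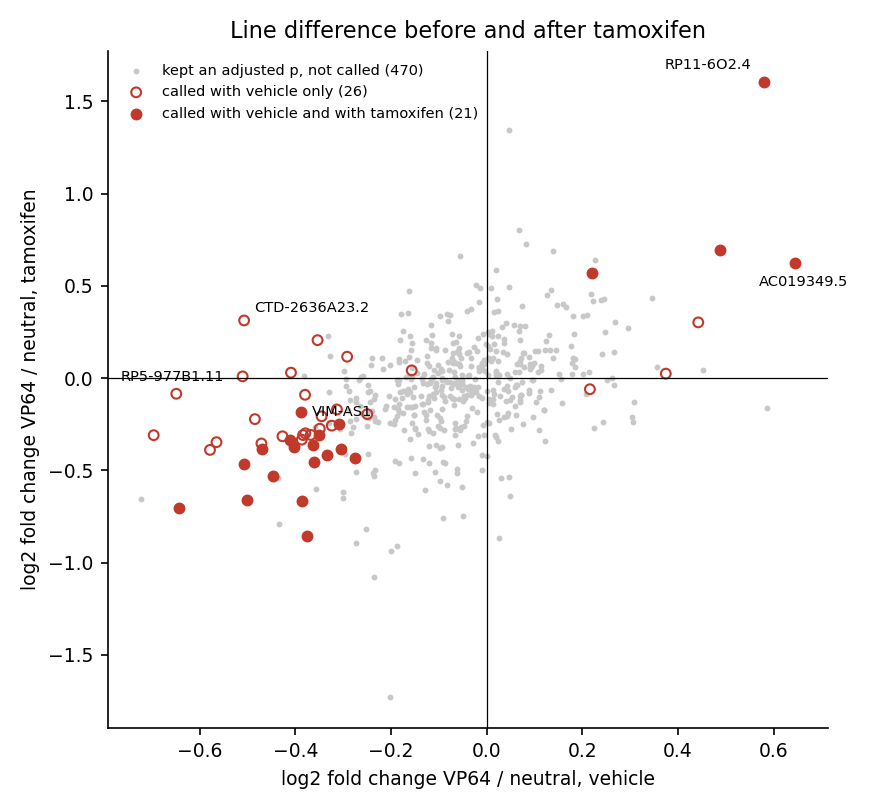
Each point is 1 of the 517 abundant rows, with the log2 line difference (VP64 over neutral) with vehicle on the horizontal and with tamoxifen on the vertical axis. Of the 47 rows called with vehicle, the 21 filled ones were also called with tamoxifen and have the same sign on both axes; RP5-977B1.11 and CTD-2636A23.2 are open, at -0.08 and 0.31 on the vertical axis.

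Seen from the induced state, rows that differed with tamoxifen leaned the same way before it. The 74 higher rows had a median line difference of 0.65 with tamoxifen and 0.16 with vehicle. Of these, 63 (85.1%) were positive with vehicle, beside 2944 of all 5816 rows, and 4 were called higher (0.12% of all rows). The 106 lower rows had medians of -0.57 and -0.14, where 81 (76.4%) were negative, beside 2871 of all 5816 rows, and 17 were called lower (0.688% of all rows). Among the 517 abundant rows, 66.2% were negative, which bears on both directions. Only rows that kept an adjusted p with vehicle could be called there. These were 105 of the 180 rows, and of all 517 such rows 7 were called higher and 40 lower. With vehicle the interval lay within a 2-fold difference in 65 of the 74 and 101 of the 106 rows. These rows were chosen for their values with tamoxifen, and their values with vehicle come from other libraries. The difference with tamoxifen holds any lasting difference between the lines as well as any effect of induction. The shared lean therefore cannot tell a likeness to the induced effect from a lasting line difference.

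The effect of tamoxifen within each line shares libraries with the vehicle comparison, so its values are given side by side only. In the 7 higher rows the median tamoxifen effect was -0.03 in the VP64 and 0.12 in the neutral line, and in the 40 lower rows it was -0.04 and -0.14. Tamoxifen raised 3 of the 7 in the VP64 line, the row opposite SYNM among them, and 2 of the 7 in the neutral line. The shares were 1.34% and 0.327% of all rows, and 9.09% and 2.32% of the 517 abundant rows. The 7 rows were chosen on vehicle libraries that both effects subtract, so nothing is read from these counts. RP11-6O2.4 had 355, 403 and 482 normalized counts in the VP64 line with tamoxifen, while the neutral line had 144, 116 and 146.5. These VP64 libraries are among those through which this row kept an adjusted p with vehicle. No likeness to the induced effect is therefore read from this row. Its effect was 1.03 (adjusted p 1.32e-08) in the VP64 and 0.01 (adjusted p 0.987) in the neutral line.

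CTD-2636A23.2, opposite HMGCS1, an enzyme of cholesterol synthesis, went the other way. It had 282, 292 and 275 normalized counts in the neutral and 216, 184 and 196 in the VP64 libraries with vehicle, without overlap (-0.51, SE 0.14, adjusted p 0.0125, and 0.434 without VP64 replicate 3). In the 6 libraries alone this row had no adjusted p, and its KRAB tamoxifen mean was 1393. With tamoxifen the values were 524, 462 and 378 in the neutral and 525, 477 and 693 in the VP64 line. The effect was 1.51 (adjusted p 1.15e-24) in the VP64 and 0.69 (adjusted p 6.22e-05) in the neutral line, and the interaction was 0.82 (SE 0.19, adjusted p 0.00351). This row was called on the vehicle difference that the interaction subtracts. RP5-977B1.11 was lower with tamoxifen in both lines, by -0.95 (adjusted p 4.59e-16) in the neutral and -0.39 (adjusted p 0.00679) in the VP64 line, and the lines had similar values afterwards, at 442, 527 and 441.6 and at 446, 435 and 449.6.

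Targets of steroid hormone receptors were examined as a list of their own. Of 18 listed genes 7 were tested, 4 higher and 3 lower with vehicle, with a median of 0.12 and 0 calls (0 at an unadjusted p under 0.05). FKBP5, a chaperone induced by steroid hormone receptors, had 27.1, 36.3 and 28.6 normalized counts in the neutral and 46.9, 32.8 and 35.3 in the VP64 libraries, which overlapped (0.32, 95% interval -0.38 to 1.02). With tamoxifen it had 14.5, 11.7 and 24.4 against 60.8, 43.7 and 63.6, without overlap, and the line difference was 1.74 (adjusted p 0.000173). CEBPD, a transcription factor gene, had 131, 112 and 138 against 151, 65.7 and 138 with vehicle (-0.10, 95% interval -0.55 to 0.34). With tamoxifen it was at 1.20 (adjusted p 2.00e-05), and the interaction was 1.30 (SE 0.33, adjusted p 0.00658). The tamoxifen effect on CEBPD was 0.41 in the VP64 line and -0.89 in the neutral line, so the larger change was a fall in the neutral line. TSC22D3 was at 0.12 (95% interval -0.58 to 0.82) with vehicle and at -0.20 with tamoxifen (adjusted p 0.819). Over the 7 genes the tamoxifen median was 0.13, with 2 called. With vehicle these intervals are wide, and a 2-fold higher FKBP5 in the VP64 line was not outside its interval.

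**Figure D4:**
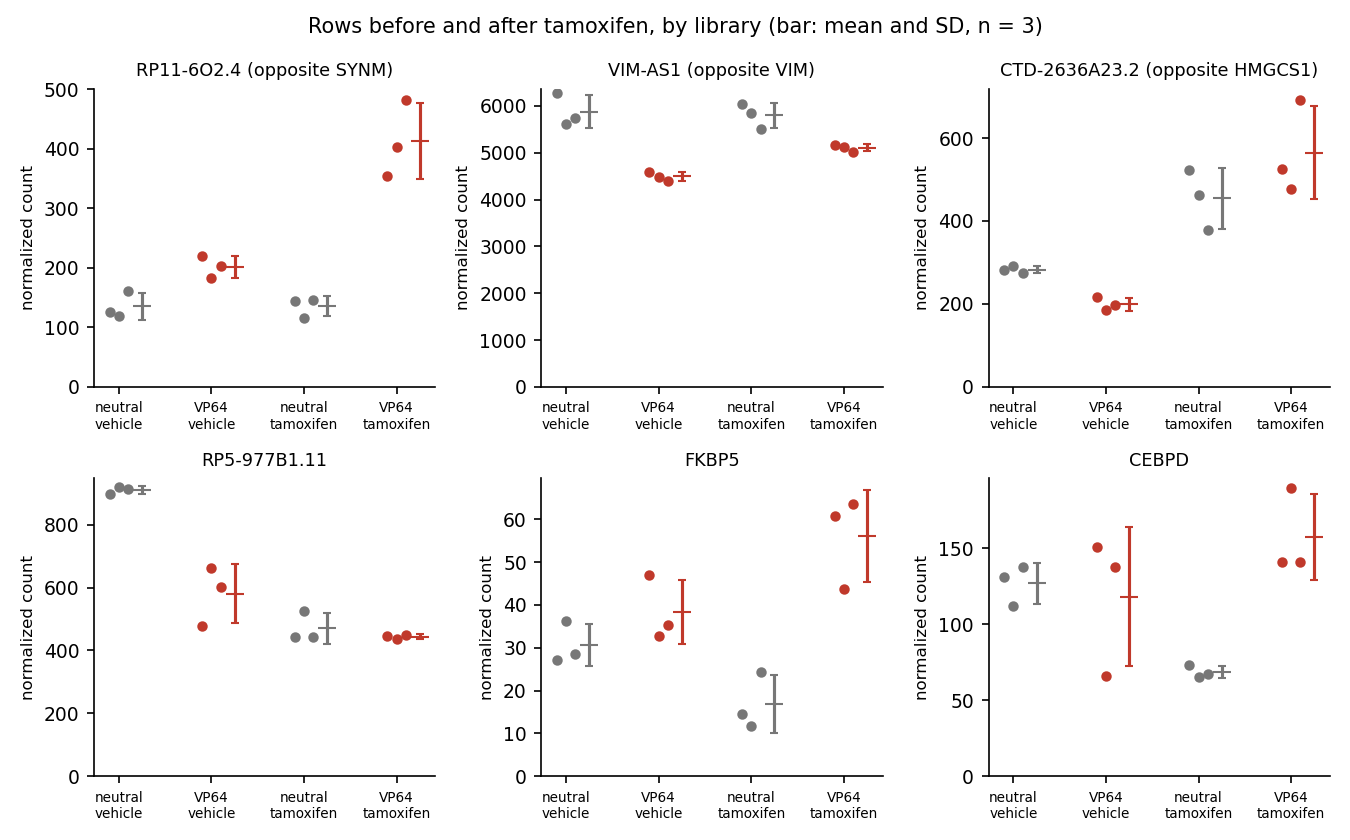
Normalized counts of 6 rows in the neutral (grey) and VP64 (red) line, with vehicle and with tamoxifen; points are libraries and bars are the mean and SD of 3. The row opposite SYNM is higher in the VP64 line in both conditions. It kept an adjusted p with vehicle only with the libraries of other groups. VIM-AS1 is lower in the VP64 line in both conditions, and the row opposite HMGCS1 is lower in the VP64 line before tamoxifen. FKBP5 and CEBPD overlap between the lines with vehicle and separate with tamoxifen.

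The third line of the study, with the KRAB construct, served as a reference for how the called rows vary between lines. Its mean with vehicle was nearer the neutral mean in 22 of the 47 rows and nearer the VP64 mean in 25. For VIM-AS1 it lay outside both, at 8745, 9012 and 9496 normalized counts, for RP3-416H24.1 at 2214, 2439 and 2348, above the VP64 line, and for RP5-977B1.11 at 252, 270.4 and 276.5, below both other lines. For AC019349.5 it had 173, 188 and 227, also above both.

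Chromosome 22 had the lowest median line difference of the autosomes with vehicle, a chromosome picked out after all medians were seen and therefore given with no test. Of its 35 rows with a mean of at least 50, 29 (82.9%) were lower with vehicle, with a median log2 fold change of -0.26, and 28 (80.0%) with tamoxifen, with a median of -0.25. The share of lower rows with vehicle was 55.9% over all rows of that abundance, and it was as high on chromosome 3 (38 of 46, 82.6%) and chromosome 13 (9 of 11, 81.8%). The other autosomes had medians from -0.14 (chromosome 3) to 0.07 with vehicle and from -0.23 (chromosome 18, 11 rows) to 0.07 with tamoxifen, and all rows of that abundance were at -0.03. With vehicle 12 of the 35 passed an unadjusted p of 0.05, all lower, beside 9.37% of rows of that abundance, and 3 were called (CTA-384D8.36, CITF22-1A6.3 and C22orf23), beside 3.21%. Some of these rows lie opposite each other and share reads.

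Set against the other autosomes in each library, chromosome 22 rows were at 0.22, 0.28 and 0.14 (log2) in the neutral libraries with vehicle and at 0.01, 0.05 and 0.01 in the VP64 libraries. With tamoxifen they were at 0.17, 0.09 and 0.11 in the neutral and -0.03, -0.12 and -0.15 in the VP64 line. The KRAB libraries with vehicle were lower still, between -0.25 and -0.13, so with vehicle the neutral line was the highest of the 3. DNA copy number was not measured.

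**Figure D5:**
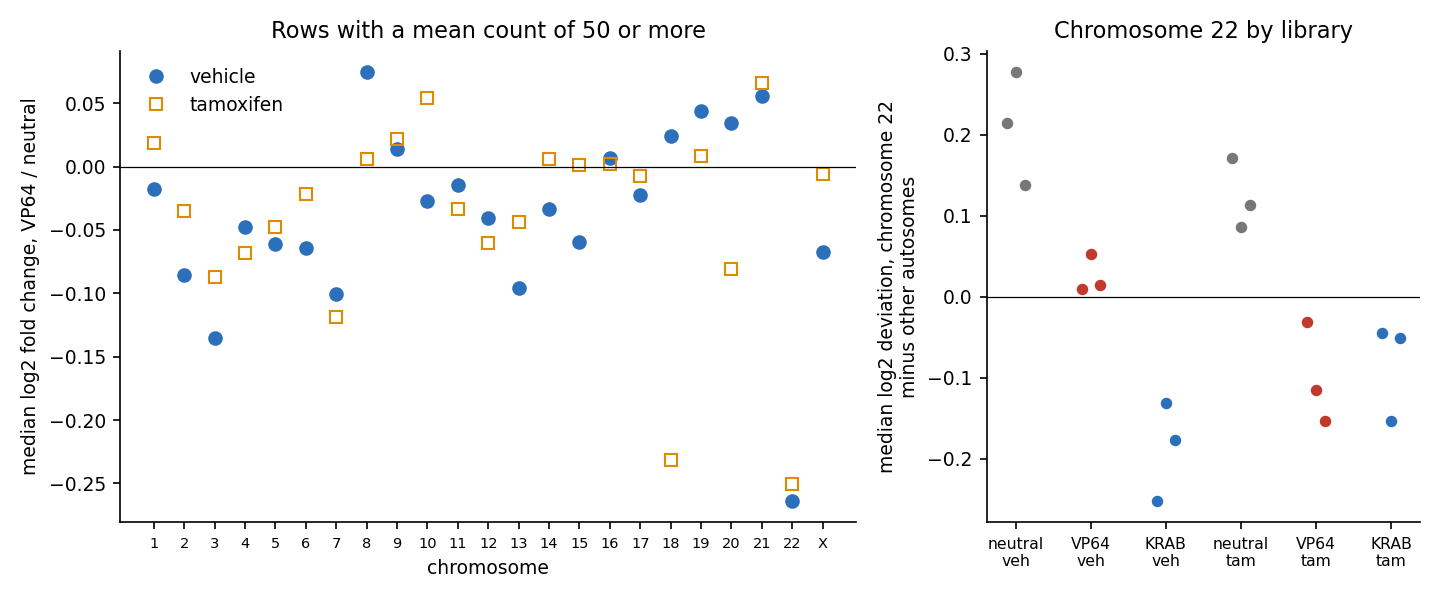
Left, the median log2 line difference (VP64 over neutral) of rows with a mean of at least 50 on each chromosome, with vehicle (circles) and tamoxifen (squares). Right, the median log2 deviation of the 35 chromosome 22 rows minus that of other autosomes in each library of the 3 lines; the neutral libraries with vehicle lie at 0.14 and above, and the VP64 ones at 0.05 and below.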

How the data were processed

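RNA-seq libraries of RWPE1 MACC lines were processed by the authors with the nf-core/rnaseq workflow on GRCh37, and genes were quantified with salmon 1.9.0. The deposited table holds expected counts (estimated reads per gene, not scaled for depth or length) for all 18 libraries, of which 1.10% of values were not whole and were rounded. The strand setting is not given in the sources used here. Depth limits precision: a floor of 3 counts corresponds to 3.90 to 4.16 CPM in the 6 vehicle libraries, and intervals reflect only counting error and variation among the libraries.

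DESeq2 1.42.0 (R 4.3.3) was fitted to all 18 libraries with a mean for each of 6 groups, median-of-ratios factors, Wald tests and Benjamini-Hochberg adjustment with independent filtering at 0.05. Log2 fold changes are unshrunken. Rows were matched by Ensembl identifier to GENCODE v44 lifted to GRCh37 for position and opposite-strand exons. The fit was tested on simulated data. Alternatives were edgeR 4.0.16 and limma 3.58.1 (voom), other scalings and filters, a fit of the 6 libraries, a replicate block, and leaving out each library.

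Groups and replicate numbers come from the labels, which call the samples biological replicates without naming separate cultures, so p-values measure only the spread between these samples. Deviations of same-numbered vehicle libraries correlated at 0.315, 0.217 and 0.218, so the numbers were taken to pair the lines with vehicle; with tamoxifen they correlated at -0.08, -0.02 and -0.003 and were not. Blocked counts, and the rows whose call the block ends, are given with the count of calls.

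Rows named are those called with a mean of at least 50 normalized counts over the 6 vehicle libraries (up to 10 higher and 20 lower by size), a fixed set of construct, marker and receptor target genes, and the 3 rows of highest count. HERC3, FAM211A, UTS2, ATP6V1C2, COX11, RP11-124N14.3, CITF22-1A6.3, C22orf23 and the rows of opposite partners were named after their values were seen. The comparison, rules and lists were chosen with earlier results of these data known. Some rows that this rule names are not reported here, and they remain in the counts of rows called.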

Additional observations from a re-analysis of the deposited data

Results flagged for a closer look

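For 6 named rows the line difference itself differed between vehicle and tamoxifen, by the interaction term of the same DESeq2 fit (adjusted p under 0.05). BEST1 (opposite FTH1) changed by -0.72 in log2 (SE 0.11, adjusted p 3.66e-08), from -0.19 with vehicle to -0.91 with tamoxifen. CEBPD changed by 1.30 (adjusted p 0.00658), from -0.10 to 1.20, and RP11-6O2.4 (opposite SYNM) by 1.03 (adjusted p 0.00212), from 0.58 to 1.61. CTD-2636A23.2 (opposite HMGCS1) changed by 0.82 (adjusted p 0.00351), from -0.51 to 0.31, and RP5-977B1.11 by 0.56 (adjusted p 0.0139), from -0.65 to -0.08. RP11-442H21.2 changed by 0.20 (adjusted p 0.0474), from -0.16 to 0.04. These values share the vehicle libraries with the line differences of the report. RP11-6O2.4, CTD-2636A23.2, RP5-977B1.11 and RP11-442H21.2 were called on the vehicle difference that the interaction term subtracts. Nothing is therefore read from how many named rows changed, beside 0.619% of all rows. With 3 libraries a group, no library was tested as an outlier.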

How the results depend on the processing

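The count of 47 rows that differed with vehicle was 4 with edgeR, 7 with limma-voom, 29 with total-count scaling (11 higher, 18 lower), 8 without independent filtering, and 0 among rows without an opposite-strand overlap. It stayed within 1.5 times of 47 with TMM factors (57), no count filter (34), the 6 libraries alone (47) and the replicate block in 18 libraries (43). The replicate block in the 6 libraries, an alternative chosen after seeing the data, gave 22. With each library left out the count was 2 to 53. With tamoxifen, 180 became 117 with limma-voom, 90 with the added replicate block, 11 without opposite-strand overlaps and 197 (129 higher, 68 lower) with total-count scaling. The 1933 rows bounded within a 2-fold difference became 308 among rows without an opposite-strand overlap and were 1639 to 1694 with single libraries left out. The chromosome 22 median, added after seeing the data, was -0.20 with total-count scaling and -0.31 to -0.23 with single libraries left out. The causes were not tested, beyond the fewer rows or libraries that some of these alternatives keep.

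No called row turned its direction in any alternative that tested it. Uncalled genes that did were KRT8 (-0.010 with edgeR, -0.0079 with limma-voom, -0.0098 with TMM factors, -0.0015 in the 6 libraries and -0.00083 with the added block) and RP5-940J5.9 (0.053 with total-count scaling). With single libraries left out, KRT14 ran from -0.040 to 0.22, CEBPD from -0.32 to 0.18, MKI67 from -0.0050 to 0.30, MYC from -0.58 to 0.17, KRT18 from -0.40 to 0.31, KRT8 from -0.044 to 0.042 and RP5-940J5.9 from -0.071 to 0.032. Of the values for named genes under all alternatives, 386 kept direction and side of the threshold, 187 kept direction but lost the call, 3 gained it (all BEST1) and 16 turned. Depth limits the rare rows, as the interval widths show.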
